A study of Mus musculus with 10 samples.

Results

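The genes described here are 10 mouse chemokines known to be made by microglia and other myeloid cells, Ccl2, Ccl3, Ccl4, Ccl6, Ccl7, Ccl9, Ccl12, Cxcl2, Cxcl10 and Cxcl16, chosen by name and matched by their NCBI gene identifiers. They are 10 of the 46152 genes counted, and 9 of them had counts. Cxcl16 had 0 counts in all libraries.

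Chemokines are small secreted proteins that guide leukocytes along concentration gradients through receptors coupled to G proteins. Most carry either adjacent cysteines (the CC family, Ccl genes) or cysteines with a residue between them (the CXC family, Cxcl genes), and many of their genes lie in clusters that arose by duplication. Microglia, the resident macrophages of the brain, transcribe several of them at a low level at rest and quickly raise them when the tissue is disturbed or the cells are taken out of it.

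RNA was sequenced from brain cells selected magnetically for CD11b after Accutase digestion and a Percoll gradient, from adult C57BL/6J mice without any engineered allele. The 5 Vehicle mice were gavaged with Tween 80 and hydroxymethyl propyl-cellulose and the 5 GW2580 mice with the same vehicle and 80 mg/kg/d of GW2580, an inhibitor of the CSF1 receptor kinase, both for 8 days. Each group held 2 males (replicates 1 and 2) and 3 females (replicates 3, 4 and 5), with 1 library per mouse. CD11b is also carried by monocytes, granulocytes and border macrophages, so the selection alone does not separate these from microglia.

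Fragments assigned to genes ranged from 12550418 to 20854218 in Vehicle libraries and from 13228819 to 26079343 in GW2580 libraries. Levels are given as CPM (counts scaled to a common library total) after TMM scaling, and the scaling factors ran from 0.691 (GW2580 3) to 1.61 (GW2580 4). Microglial markers such as Tmem119 and Sparc were high in all libraries, with 12 of the 13 markers passing the filter on low counts and a summed level of 14586 to 37774 CPM with vehicle and 19485 to 65139 CPM with GW2580. Some libraries stood apart. Vehicle 5 had the lowest summed microglial markers of all 10 libraries, and Vehicle 2 and Vehicle 5 had summed oligodendrocyte markers of 17905 and 4357 CPM against 163 to 335 CPM in the other Vehicle libraries. GW2580 4 had summed oligodendrocyte markers of 1779 CPM against 178 to 597 CPM in the other GW2580 libraries, and its summed astrocyte and neuron markers, 594 and 169 CPM, were likewise the highest of its group. Summed monocyte and granulocyte markers ran from 724 CPM in Vehicle 5 to 29709 CPM in Vehicle 1, and from 911 to 14713 CPM with GW2580. GW2580 4 had the largest share of records on no annotated exon, 60.1%, against 38.4 to 56.1% in the other 9 libraries.

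The 9 detected genes lie in 3 places of the GRCm38 genome. Ccl2 (chr11:82035577-82037452), Ccl7 (chr11:82045712-82047525) and Ccl12 (chr11:82101845-82103399) follow each other on the plus strand of chromosome 11. Farther along the same chromosome are Ccl9 (chr11:83572917-83578636) and Ccl6 (chr11:83587886-83593087) on the minus strand, then Ccl3 (chr11:83647843-83649378, minus strand) and Ccl4 (chr11:83648624-83664683, plus strand). Cxcl2 (chr5:90903899-90905938, plus strand) and Cxcl10 (chr5:92346638-92348889, minus strand) are on chromosome 5.

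Ccl3 and Ccl4 overlap in the annotation used for counting. The second of the 3 exons of Ccl3 (chr11:83648569-83648680, minus strand, 112 bases, all coding) shares 57 bases with an exon of a predicted Ccl4 transcript on the other strand. The exon is shown because the counting took no account of strand, so a fragment lying on the shared bases fits both genes and is given to neither. The capitals mark the 57 shared bases, written 5′ to 3′ on the strand of Ccl3.
Ccl3 exon 2: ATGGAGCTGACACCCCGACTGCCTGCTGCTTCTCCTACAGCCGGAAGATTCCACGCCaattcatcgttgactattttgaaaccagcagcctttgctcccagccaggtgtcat

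Promoter windows of 250 bases upstream of the start were available from RefSeq (GRCm38.p6) for 6 of the 10 genes, Ccl3, Ccl6, Ccl9, Ccl12, Cxcl2 and Cxcl10. They were searched on both strands for an NF-kB motif (GGGA, any 2 bases, T, any base, CC, found in 3.33% of 32851 mouse windows of this length), an AP-1 motif (TGANTCA, 6.75%), an interferon element (GAAA, any 2 bases, GAAA, 2.98%) and a TATA box (TATAAA, 12.4%). NF-kB is the transcription factor through which Toll-like receptors and TNF raise many chemokines, and its motif stood in the windows of Cxcl2 and Cxcl10. The AP-1 motif stood in Ccl9 and Cxcl10, the interferon element in Cxcl10 and the TATA box in Ccl9 and Ccl12, while none of the 4 was in the windows of Ccl3 and Ccl6. A match describes the letters and not binding. The last 160 bases before the start are shown for the 2 CXC genes, whose group means were closest, and for the neighbours Ccl6 and Ccl9, whose ratio differed between the groups. Capitals mark the motif matches.
Cxcl2 (chr5:90903739-90903898, plus strand): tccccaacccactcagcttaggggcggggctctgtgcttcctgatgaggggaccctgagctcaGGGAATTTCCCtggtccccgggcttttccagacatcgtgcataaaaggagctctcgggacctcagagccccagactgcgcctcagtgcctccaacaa
Cxcl10 (chr5:92348890-92349049, minus strand): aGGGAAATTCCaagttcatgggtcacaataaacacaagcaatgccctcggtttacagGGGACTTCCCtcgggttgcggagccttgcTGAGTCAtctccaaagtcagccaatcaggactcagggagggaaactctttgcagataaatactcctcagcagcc
Ccl6 (chr11:83593088-83593247, minus strand): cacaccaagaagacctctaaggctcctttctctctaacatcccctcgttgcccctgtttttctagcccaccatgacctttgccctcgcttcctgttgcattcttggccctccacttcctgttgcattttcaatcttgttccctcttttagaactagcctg
Ccl9 (chr11:83578637-83578796, minus strand): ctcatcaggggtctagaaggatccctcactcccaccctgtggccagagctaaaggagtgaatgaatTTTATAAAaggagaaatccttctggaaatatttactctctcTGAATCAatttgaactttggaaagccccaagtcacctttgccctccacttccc

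The chemokines formed a wide ladder of levels in the Vehicle libraries. To compare genes, CPM was divided by the counted exon length in kilobases. On this scale Ccl4 was highest with a mean of 3156 CPM per kilobase, ahead of Ccl3 with 1857 and Ccl12 with 959 CPM per kilobase. Ccl6 and Ccl2 came next with 379 and 353 CPM per kilobase. Ccl7 (113), Cxcl2 (111), Ccl9 (59.4) and Cxcl10 (22.6 CPM per kilobase) closed the order. Ccl6 and Ccl2 did not differ beyond the spread of their ratio within libraries, and neither did Ccl7 and Cxcl2. Each of the other neighbours kept its order in 5 of 5 Vehicle libraries. Fragments on the 57 bases shared by Ccl3 and Ccl4 are missing from both genes in every library, while their counted lengths include these bases. The effect of this on the levels of Ccl3 and Ccl4 was not tested.

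With GW2580 the order of means was Ccl4 (1536 CPM per kilobase), Ccl3 (749), Ccl12 (498), Ccl6 (169), Ccl2 (156), Cxcl2 (97.0), Ccl7 (50.3), Ccl9 (49.5) and Cxcl10 (20.005). Cxcl2 thus stood ahead of Ccl7 in this group, and did so in 5 of 5 libraries. Ccl6 and Ccl2, and Ccl7 and Ccl9, did not differ beyond their spread. Scaling by library size alone left all 9 ranks of the means in each group as they were. The order within a library does not depend on its scaling, so this does not test it.

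**Figure D1:**
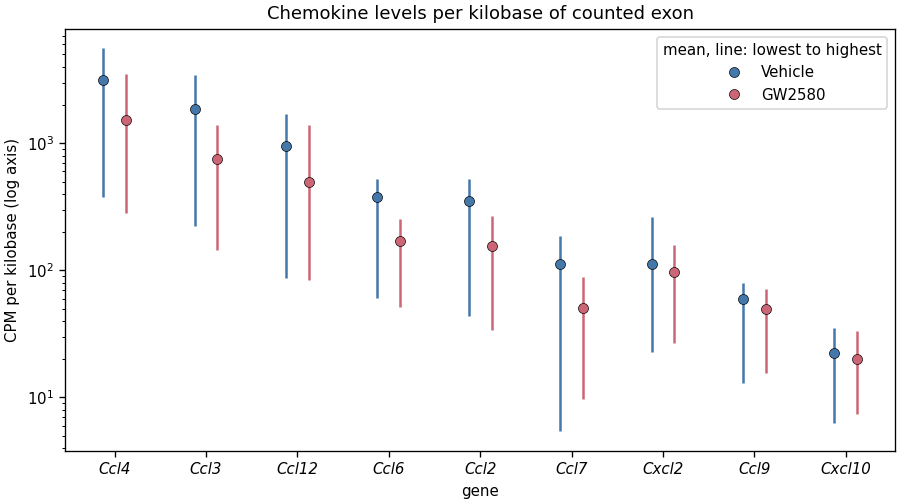
Level of each chemokine in CPM per kilobase of counted exon (log axis), with points for the group means and lines from the lowest to the highest of 5 libraries. Vehicle means run from 22.6 (Cxcl10) to 3156 (Ccl4), and the ranges of the groups overlap for all 9 genes.

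Together the 9 genes took up 0.0644 to 1.01% of assigned fragments in Vehicle libraries and 0.0961 to 0.649% in GW2580 libraries. Ccl3 and Ccl4 supplied 60.5 to 73.4% of these chemokine fragments. The summed level was 10415, 6926, 6273, 5687 and 754 CPM in Vehicle 1 to 5 and 1643, 3730, 2609, 602 and 5917 CPM in GW2580 1 to 5. Vehicle 5 thus had a summed level far under the other 4 Vehicle libraries, and GW2580 5 lay among the Vehicle libraries.

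The comparison of GW2580 with Vehicle asks how a block of CSF1 receptor signalling bears on these transcripts in healthy mice. All 9 detected chemokines had a lower fitted level with GW2580, and 0 of 9 passed the call rule of a fold change over 2 with an unadjusted p under 0.05. Of all 28419 genes tested, 10.7% were called by that rule (6.7% lower and 4.01% higher with GW2580), 14.7% had an unadjusted p under 0.05 and 51.6% had a log2 fold change below 0. The GW2580 means of Ccl2, Ccl3, Ccl4, Ccl6 and Ccl7 were 0.403 (Ccl3) to 0.487 (Ccl4) of the Vehicle mean, that of Ccl12 was 0.519 of it, while those of Ccl9, Cxcl2 and Cxcl10 were 0.833, 0.871 and 0.886 of it. The median log2 fold change was -1.04 over the 9 genes and -0.03 over all genes tested. The groups overlapped for all 9 genes, and 3.03% of all genes had groups that did not overlap. No gene of the genome passed an adjusted p of 0.05 in edgeR (0 of 28419, with 4186 at an unadjusted p under 0.05), and DESeq2 gave 232. In bulk RNA, fewer cells of a type and less RNA per cell cannot be told apart.

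**Figure D2:**
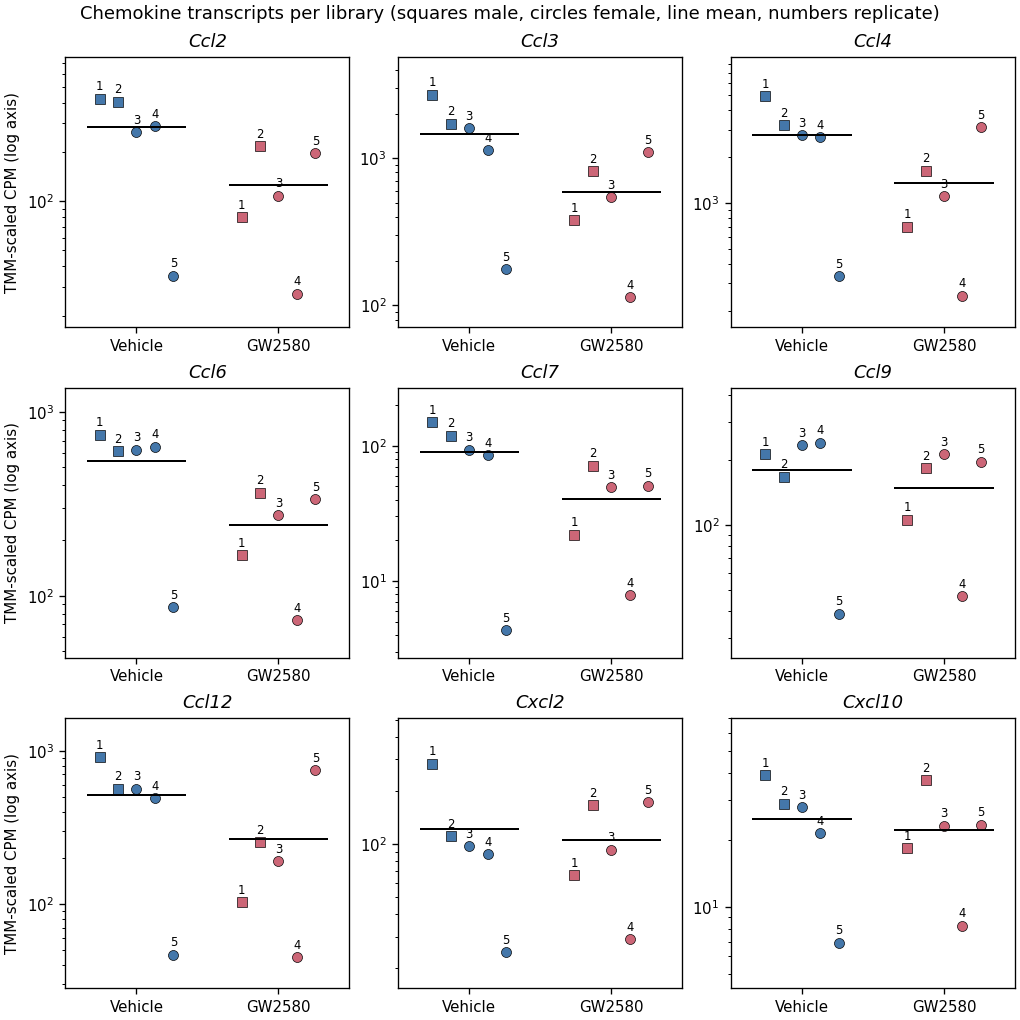
TMM-scaled CPM (log axis) of each chemokine in each library, with squares for males, circles for females, numbers for replicates and lines for group means. Vehicle 5 and GW2580 4 are the 2 lowest libraries in all 9 panels. GW2580 5 exceeds at least 1 of Vehicle 1 to 4 for Ccl4, Ccl9, Ccl12, Cxcl2 and Cxcl10.

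Ccl3 and Ccl4, the macrophage inflammatory proteins, which attract monocytes, macrophages and T cells, were the most abundant. Ccl4 was measured at 4942, 3203, 2766, 2689 and 335 CPM in Vehicle 1 to 5 and at 701, 1624, 1110.4, 250.05 and 3098 CPM in GW2580 1 to 5. GW2580 5 thus exceeded 3 of the 5 Vehicle libraries, and GW2580 1 to 4 were under Vehicle 1 to 4. The fitted difference was -1.04 log2 units, standard error 0.69 (edgeR quasi-likelihood test, unadjusted p = 0.156, adjusted p = 0.485).

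Ccl3 read 2704, 1715, 1601, 1138 and 176 CPM in Vehicle 1 to 5 and 381, 816, 546, 114 and 1101 CPM in GW2580 1 to 5. All 5 GW2580 libraries were under Vehicle 1 to 4, and Vehicle 5 was under all but GW2580 4. Vehicle mice averaged 1467 ± 920.0 CPM and GW2580 mice 592 ± 382 CPM (SD over 5 mice per group). The fitted difference was -1.31 log2 units, standard error 0.66 (edgeR, unadjusted p = 0.0675, adjusted p = 0.367), and permuting the libraries gave p = 0.214 (exact, two-sided). Over the 9 genes such exact permutation p-values ran from 0.183 (Ccl6) to 0.944 (Cxcl2).

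Ccl2, Ccl7 and Ccl12 encode the monocyte chemoattractant proteins, ligands of CCR2 that draw inflammatory monocytes out of the blood. Ccl2 was at 424, 408, 265, 289 and 35.1 CPM in Vehicle 1 to 5 and at 79.7, 217, 108, 27.2 and 197 CPM in GW2580 1 to 5. All 5 GW2580 libraries were again under Vehicle 1 to 4. For Ccl2 the fit gave -1.18 log2 units, standard error 0.62 (edgeR, unadjusted p = 0.0780, adjusted p = 0.384).

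Ccl7 was at 149.6, 119, 93.4, 85.0 and 4.33 CPM in the Vehicle libraries and at 22.0, 71.3, 49.7, 7.86 and 50.8 CPM in the GW2580 libraries. It had the widest span of the 9 genes, with 34.6 times more in Vehicle 1 than in Vehicle 5, the library with the least. For Ccl7 the fit gave -1.16 log2 units, standard error 0.70 (edgeR, unadjusted p = 0.119, adjusted p = 0.443).

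Ccl12, which is found in rodents and not in humans, was at 905, 565, 565, 489 and 46.7 CPM in Vehicle 1 to 5 and at 103, 252.3, 191, 44.9 and 744 CPM in GW2580 1 to 5. GW2580 5 was the second highest of all 10 libraries, while GW2580 1 to 4 were all under Vehicle 1 to 4. The fitted difference was -0.95 log2 units, standard error 0.74 (edgeR, unadjusted p = 0.219, adjusted p = 0.551), and it ran from -1.89 without GW2580 5 (unadjusted p = 0.0196, adjusted p = 0.153) to -0.64 without Vehicle 1 (unadjusted p = 0.420, adjusted p = 0.745) when 1 library was left out.

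Ccl6 and Ccl9, neighbouring genes for ligands of CCR1 that resting myeloid cells also make, differed from each other. Ccl6 was at 754, 611, 623, 648 and 86.5 CPM in Vehicle 1 to 5 and at 166, 365, 276, 73.7 and 335 CPM in GW2580 1 to 5. Vehicle 1 to 4 were close together, with an SD of 0.14 on the log2 scale, and all 5 GW2580 libraries lay under them. The fitted difference was -1.16 log2 units, standard error 0.55, with the lowest p of the 9 genes (edgeR, unadjusted p = 0.0530, adjusted p = 0.342).

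Ccl9 was at 213, 167, 234, 239.8 and 38.8 CPM in the Vehicle libraries and at 105, 183, 213, 46.6 and 196 CPM in the GW2580 libraries. GW2580 2, GW2580 3 and GW2580 5 exceeded Vehicle 2. The fitted difference was -0.26 log2 units, standard error 0.50 (edgeR, unadjusted p = 0.607, adjusted p = 0.827).

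Cxcl2 attracts neutrophils through CXCR2. It was at 284, 110.2, 97.0, 87.7 and 24.5 CPM in Vehicle 1 to 5 and at 66.6, 165, 92.7, 29.0 and 172 CPM in GW2580 1 to 5. Vehicle 1 alone was above GW2580 2 and GW2580 5, and the log2 fold change of -0.20 (standard error 0.58; edgeR, unadjusted p = 0.737, adjusted p = 0.892) turned to 0.39 without Vehicle 1. Of 2159 distinct stretches of 50 bases in its transcripts, 126 also occur in those of its paralogue Cxcl3, and a fragment lying wholly within those cannot be placed.

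Cxcl10 is induced by interferons and attracts T cells through CXCR3. It was the scarcest of the detected chemokines, at 38.9, 29.0, 28.0, 21.5 and 6.91 CPM in the Vehicle libraries and 18.4, 37.0, 23.1, 8.24 and 23.4 CPM in the GW2580 libraries. Its groups covered nearly the same range, and the fitted difference was -0.17 log2 units, standard error 0.45 (edgeR, unadjusted p = 0.703, adjusted p = 0.875), turning to 0.04 without Vehicle 1 or without GW2580 4.

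Cxcl16 is a transmembrane chemokine that binds CXCR6 and is released from the cell surface by the proteases ADAM10 and ADAM17. It was listed at 0 in 10 of 10 libraries. The annotation holds it on chromosome 11 (chr11:70454389-70459984, minus strand, 1813 exon bases) and again on an additional scaffold, and its counted length of 3626 bases is the sum of both copies. Fragments aligned to more than 1 place were not counted. Among protein-coding genes annotated on a chromosome alone, 475 of 21010 (2.26%) had 0 counts in all libraries, against 185 of 859 (21.5%) for those annotated on a chromosome and another scaffold. The share was 11 of 61 (18.0%) on the scaffold that holds Cxcl16 and 71 of 191 (37.2%) for genes whose counted length was likewise doubled. One exon of Cxcl16 also shares 552 bases with Zmynd15 on the other strand. The part of these in the 0 was not tested, and no level is given for this gene. Of its proteases, Adam10 was called higher with GW2580, 176 ± 106 CPM against 65.0 ± 10.7 CPM (SD over 5 mice per group; log2 change 1.44, standard error 0.42, edgeR unadjusted p = 0.00439, adjusted p = 0.280), and Adam17 had a log2 fold change of 0.92 (unadjusted p = 0.0465) from 78.1 ± 26.3 to 148 ± 84.7 CPM, which is under the fold threshold.

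The 9 chemokines had their lowest levels in the same libraries. Vehicle 5 and GW2580 4 were the 2 lowest libraries for all 9. The SD around the group means was 0.88 (Cxcl10) to 1.73 (Ccl7) on the log2 scale, and 82.7 to 98.1% of the 10945 genes with a mean of at least 10 CPM had a smaller one, the median being 0.57. Among Vehicle 1 to 4 alone the SD was 0.14 (Ccl6) to 0.78 (Cxcl2). The same 2 libraries were also the lowest in the summed level of 3 other lists. Summed microglial markers were at 14586 CPM in Vehicle 5 and 19485 CPM in GW2580 4 against 25489 to 65139 CPM in the other 8 libraries. Summed early response genes, such as Fos, Jun and Junb, were at 29272 and 26807 CPM against 36905 to 87324 CPM. Summed NF-kB genes were at 2862 and 2031 CPM against 3603 to 6965 CPM. Nfkbia was the largest part of that sum, at 601 CPM in Vehicle 5. In mean log2 CPM the NF-kB list was not low in Vehicle 5, at 6.71 against 6.26 to 6.79 in the other Vehicle libraries. Summed monocyte and granulocyte markers were at 29709, 8586, 3539, 2953 and 724 CPM in Vehicle 1 to 5, falling in the same order as the summed chemokines. In GW2580 1 to 5 they were at 5379, 14713, 911, 1310 and 6138 CPM, in another order than the chemokines and lowest in GW2580 3. Vehicle 5 and GW2580 4 are also among the 3 highest in glial and neuronal markers. The part of these in the chemokine levels was not tested.

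**Figure D3:**
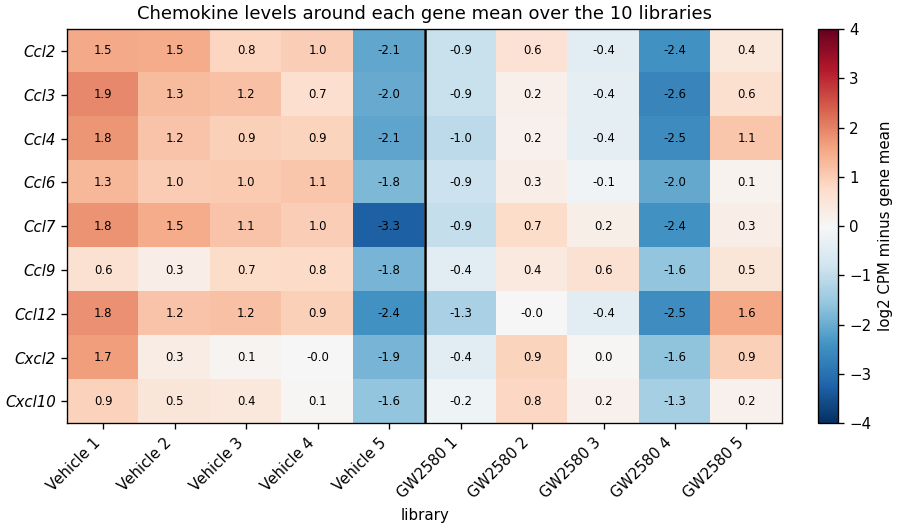
Log2 CPM of each chemokine minus its mean over the 10 libraries, with libraries in columns and genes in rows. Vehicle 5 and GW2580 4 are below the mean for all 9 genes, and Vehicle 1 is above it for all 9.

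Likeness of pattern was measured as the root mean square difference of gene-centred log2 CPM over the 10 libraries, among 10944 other genes. The genes nearest to Ccl4 were Ccl3 (0.20), Ccl12 (0.22) and A430035B10Rik (0.28), and those nearest to Ccl3 were Ccl4, Ccl2 (0.25) and Abracl (0.34). Ccl12 was nearest to Cyba (0.21), a subunit of the phagocyte NADPH oxidase, Ccl4 (0.22) and Tyrobp (0.22), an adaptor of myeloid receptors. Ccl6 was nearest to Tmem203 (0.21), Cd300c2 (0.24) and Ly86 (0.25). The 4 genes themselves varied around their means by 1.15 to 1.53 on the same measure. Between 2 of the detected chemokines the difference ran from 0.20 (Ccl3 and Ccl4) to 0.95 (Ccl12 and Cxcl10). Among the 3 nearest genes of Ccl6, of Ccl9 and of Cxcl10 there was no other listed chemokine.

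The calls depended on single libraries. Without Vehicle 5, 5 of the 9 chemokines were called lower (Ccl2, Ccl3, Ccl4, Ccl6 and Ccl7), where 12.9% of all genes were called and 6.74% were called lower. Without GW2580 5, 5 of 9 were called lower (Ccl2, Ccl3, Ccl4, Ccl6 and Ccl12), where 17.6% of all genes were called and 13.2% were called lower. In these fits the called chemokines had edgeR adjusted p from 0.153 to 0.223, and 0 genes passed an adjusted p of 0.05. Without Vehicle 5 and GW2580 5 together, 6 of 9 were called lower, where 22.3% of all genes were called and 15.2% were called lower. In that fit 4844 of 27215 genes had an adjusted p under 0.05. Their log2 fold changes were then -1.77 for Ccl2, -2.04 for Ccl3, -1.98 for Ccl4, -1.68 for Ccl6, -1.66 for Ccl7 and -2.19 for Ccl12, with edgeR adjusted p from 0.0126 to 0.0366. Both libraries were picked because earlier results of these data placed them on the side of the other group, so these values describe the remaining 8 libraries and do not test the treatment. Without the Vehicle libraries high in glial transcripts, Vehicle 2 and Vehicle 5, 4 of 9 were called lower (Ccl2, Ccl3, Ccl6 and Ccl7), where 8.5% of all genes were called and 3.42% were called lower. With GW2580 4 left out as well, a fit added after seeing the data, the called genes were again Ccl2 (-1.18), Ccl3 (-1.42), Ccl6 (-1.31) and Ccl7 (-1.25), where 6.51% of all genes were called and 3.55% were called lower. DESeq2 on all 10 libraries called Ccl2, Ccl3 and Ccl6 lower, where it called 10.5% of its 44086 genes and 6.47% lower.

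**Figure D4:**
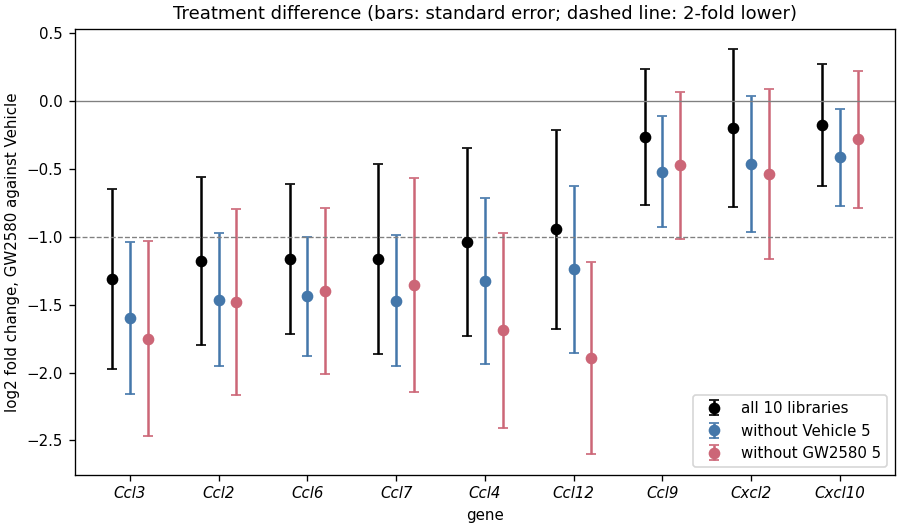
Log2 fold change of GW2580 against Vehicle for each chemokine, with bars of 1 standard error, from all 10 libraries (black), without Vehicle 5 (blue) and without GW2580 5 (red). All values are below 0, and those of Ccl9, Cxcl2 and Cxcl10 lie nearer to 0 than those of the other 6 genes.

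The ratio of a pair of chemokines within a library does not depend on the scaling of that library. Ratios were taken for 4 pairs of related neighbours. The log2 ratio of Ccl6 to Ccl9 was 1.82, 1.87, 1.41, 1.43 and 1.15 in Vehicle 1 to 5 and 0.65, 0.99, 0.37, 0.66 and 0.77 in GW2580 1 to 5. Every GW2580 library was below every Vehicle library, including Vehicle 5 and GW2580 4, in which both genes were scarce. Vehicle mice averaged 1.54 ± 0.30 and GW2580 mice 0.69 ± 0.22 (SD over 5 mice per group), a difference of -0.85. An exact permutation test, two-sided, gave p = 0.00794, the smallest that 5 against 5 libraries can give, and 0.0317 adjusted over the 4 ratios. How often the ratio of other gene pairs separates these groups was not computed. For single genes the share without overlap was 3.03%.

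The counted exons of Ccl9 (3008 bases) are longer than those of Ccl6 (1436 bases), and the trend of level on gene length, read at the length of Ccl6, ran from -0.33 in Vehicle 5 to 0.15 in Vehicle 4 on the log2 scale. With this trend removed from each library, an alternative added after seeing the data, the difference of the Ccl6 to Ccl9 ratio was -0.81 and again 5 of 5 GW2580 libraries were below every Vehicle library (exact permutation p = 0.00794). Of 2996 distinct stretches of 50 bases in the Ccl9 transcripts, 59 occur in transcripts of other genes, and 0 of 1743 do for Ccl6.

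The other 3 ratios overlapped between the groups. The log2 ratio of Ccl3 to Ccl4 averaged -0.95 ± 0.17 in Vehicle and -1.10 ± 0.23 in GW2580 mice (SD over 5 mice per group; exact permutation p = 0.294). For Ccl2 to Ccl7 it was 1.91 ± 0.62 and 1.66 ± 0.33 (p = 0.563, exact permutation), and for Ccl2 to Ccl12 it was -0.76 ± 0.33 and -0.81 ± 0.67 (p = 0.937, exact permutation). In GW2580 5 the Ccl2 to Ccl12 ratio was -1.92, while the other 9 libraries were at -1.09 or above. The Ccl3 to Ccl4 ratio leaves out fragments on the 57 bases that these genes share.

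**Figure D5:**
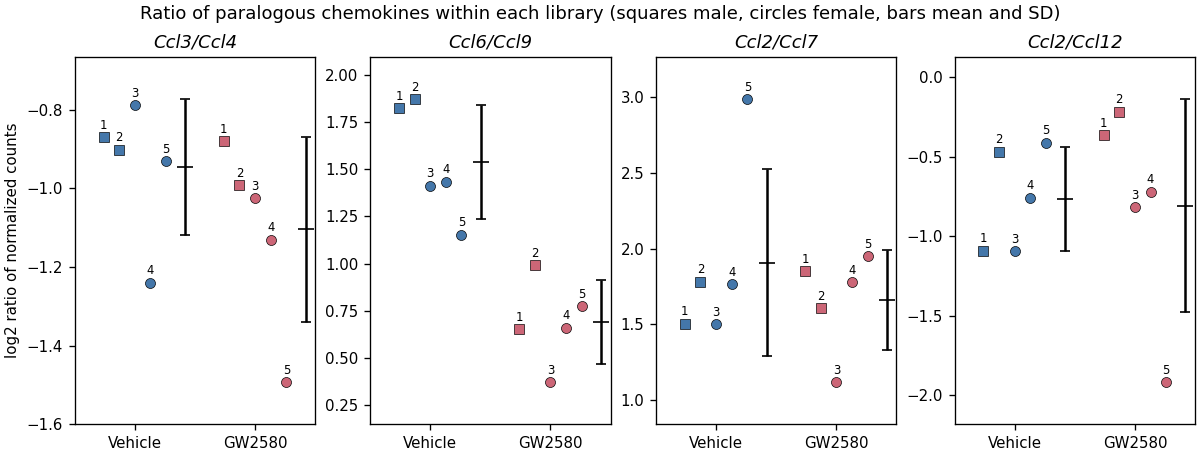
Log2 ratio of normalized counts of 4 pairs of chemokines in each library (squares male, circles female), with bars for the group mean and SD. The Ccl6 to Ccl9 ratio lies between 1.15 and 1.87 with vehicle and between 0.37 and 0.99 with GW2580, and the groups of the other 3 pairs overlap.

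In males the difference of group means in log2 CPM ran from -2.15 (Ccl12) to -0.36 (Cxcl10), and in females from -0.79 (Ccl6) to 0.38 (Cxcl2). Vehicle 5 and GW2580 5 are both female. The interaction of sex and treatment had unadjusted p from 0.243 to 0.844 in edgeR and an adjusted p of 1 for all 9 genes, where 2.52% of all genes had an interaction p under 0.05.

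Of the 30 other mouse chemokines listed, 17 passed the filter on low counts, 2 were called lower and 0 higher, and the median log2 fold change was -0.26. The 2 were Ccl27a, 11.3 ± 11.8 CPM in Vehicle and 3.37 ± 1.67 CPM in GW2580 mice (SD over 5 mice per group; log2 change -1.74, edgeR unadjusted p = 0.0123, adjusted p = 0.280) and Cxcl14 at 22.6 ± 32.7 and 4.26 ± 2.89 CPM (log2 fold change -2.40, unadjusted p = 0.0135, adjusted p = 0.280). Ccl5, which attracts T cells and monocytes, was at 23.9 ± 6.29 and 11.4 ± 13.3 CPM (unadjusted p = 0.0772). Ccl19, Ccl21a, Ccl21b and Ccl27b had 0 counts in all libraries, and their levels were not assessed.

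Of the 9 receptors listed for these chemokines, 8 passed the filter, 0 were called lower with GW2580 and the median log2 fold change was -0.04. Ccr1, a receptor for Ccl3, Ccl6 and Ccl9, was at 32.0 ± 16.1 CPM in Vehicle and 33.5 ± 15.7 CPM in GW2580 mice (SD over 5 mice per group; log2 change 0.07, edgeR unadjusted p = 0.871, adjusted p = 0.950). Ccr2, the receptor for Ccl2, Ccl7 and Ccl12, was at 18.4 ± 6.01 and 23.8 ± 8.91 CPM (log2 change 0.37, unadjusted p = 0.300, adjusted p = 0.622).

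The listed genes of NF-kB signalling are its subunits, inhibitors and targets. Of 17 that passed the filter, 1 was called higher, 0 lower, and 3 had a log2 fold change below 0, with a median of 0.59. Nfkbiz, an atypical inhibitor protein of the nucleus that acts on secondary response genes, was the one called (215 ± 73.7 CPM in Vehicle and 467 ± 256 CPM in GW2580 mice, SD over 5 mice per group; log2 change 1.12, edgeR unadjusted p = 0.0197, adjusted p = 0.281). Nfkbia, the inhibitor that NF-kB itself induces, was at 2104 ± 864 and 1346 ± 758 CPM (log2 fold change -0.64, unadjusted p = 0.254). Tnf had 0 counts in all libraries, and its level was not assessed.

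Of 13 interferon response genes, 0 were called, with a median of 0.16, and Irf1 and Irf9 had unadjusted p of 0.249 and 0.756 in edgeR. Of 17 early response genes, which rise when tissue is dissociated, 1 was called higher (Ier5, log2 fold change 1.08, edgeR unadjusted p = 0.0263, adjusted p = 0.293) and the median was 0.23. Of the 4 genes for proteins that destabilize chemokine and cytokine transcripts, led by Zfp36 at 4868 CPM in Vehicle and 5877 CPM in GW2580 mice, 0 were called. Summed early response genes covered 29272 to 45167 CPM with vehicle and 26807 to 87324 CPM with GW2580.

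The marker lists show what else moved with the groups. Of the 12 microglial markers that passed the filter, 1 was called higher (Cx3cr1, log2 fold change 1.14, edgeR unadjusted p = 0.0278, adjusted p = 0.298) and the median was 0.45. Of 12 monocyte and granulocyte markers, 1 was called lower (Plac8, -1.60) and 10 had a log2 fold change below 0, with a median of -0.76. Of 7 border macrophage markers, 1 was called higher (Mrc1, 1.10), with a summed level of 212 to 387 CPM with vehicle and 182 to 732 CPM with GW2580.

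Astrocyte markers were called lower in 2 of 7 (Aldoc and Sox9), oligodendrocyte markers in 4 of 7 (Mbp, Mobp, Sox10 and Olig2) and neuron markers in 2 of 8 (Rbfox3 and Stmn2). Summed astrocyte markers ran from 181 to 2941 CPM with vehicle and from 180.0 to 594 CPM with GW2580, summed oligodendrocyte markers from 163 to 17905 and from 178 to 1779 CPM, and summed neuron markers from 51.1 to 604 and from 49.3 to 169 CPM. Endothelial markers had 0 calls among 6, at 55.8 to 89.9 and 71.9 to 95.1 CPM in sum. Cldn5 had 0 counts in all libraries, and its level was not assessed. The part of these cell types in the chemokine differences was not tested.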

How the data were processed

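The authors aligned read pairs with STAR to GRCm38 and counted unique fragments per RefSeq gene with featureCounts 1.6.3, without regard to strand, and the deposited counts are not normalized. The length of each gene in bases was deposited beside them. Of the records, 24.3 to 43.3% were assigned to genes, and the unassigned classes stayed out of library sizes. Of 46152 gene identifiers, 46029 matched a symbol of the RefSeq table. Depth was at least 12550418 fragments per library, and the libraries that differed least, Vehicle 3 and Vehicle 4, had a chi-square of 6.94 per gene, so none was a duplicate.

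Genes over 1 CPM in 3 libraries or more were fitted with edgeR 4.0.16 (R 4.3.3, TMM, quasi-likelihood F test, treatment alone, Benjamini-Hochberg over all 28419 genes). The standard error is the log2 fold change over the root of F. Log2 CPM and ratios used a prior count of 2. Alternatives were DESeq2 1.42.0, limma-voom (limma 3.58.1), other scalings, filters, thresholds and prior counts, sex, the replicate block and leaving out libraries. The fit was tested on simulated counts. The members and lists were chosen with earlier results of these data known. Named are all members and, per list, called genes and up to 3 of highest mean CPM, with the 3 genes nearest in pattern to the 4 most abundant members, and list genes at 0 in all libraries were named after their values were seen. Sequences are from RefSeq and the reference genome. Sequencing depth covers counting error only. Some genes of the lists are not reported here singly and stay in the counts and medians.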

Additional observations from a re-analysis of the deposited data

Results flagged for a closer look

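In 26 groups of 5 values checked for a value far from the others, 2 stood out, where chance gives about 1 in 20 groups. Ccl6 was at 86.5 CPM in Vehicle 5, against 611 to 754 CPM in the other Vehicle libraries. The log2 ratio of Ccl2 to Ccl7 was 2.98 in Vehicle 5, against 1.501 to 1.78 in the other Vehicle libraries. Both lie in the Vehicle library with the lowest summed microglial markers, 14586 CPM.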

How the results depend on the processing

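The number of chemokines called, 0 of 9, was 1 with DESeq2's size factors in edgeR, 1 with library size alone, 1 without a filter (Ccl6 each time), 3 with DESeq2, 6 without Vehicle 5 and GW2580 5, 4 without Vehicle 2 and Vehicle 5 and 4 without Vehicle 2, Vehicle 5 and GW2580 4 (added after seeing the data), and ran from 0 to 5 over the 10 fits that each leave out 1 library (5 without Vehicle 5, 5 without GW2580 5 and 2 without GW2580 2). Over all genes the 3046 calls became 4802 without a filter, 4610 with DESeq2, 6057 without Vehicle 5 and GW2580 5, 1719 without Vehicle 2, Vehicle 5 and GW2580 4, 928 at a fold over 2 with p under 0.01 and 0 at an adjusted p under 0.05, and ran from 1684 (without GW2580 1) to 4848 (without GW2580 5) when 1 library was left out. Library size alone moved the median gene from -0.03 to 0.23 and the split from 1141 higher and 1905 lower to 2123 higher and 875 lower. The log2 fold change of Ccl2, Ccl3, Ccl4, Ccl6, Ccl7, Ccl9 and Ccl12 stayed below 0 under all 22 alternatives. That of Ccl12 ran from -2.19 without Vehicle 5 and GW2580 5 to -0.64 without Vehicle 1. That of Cxcl2 turned to 0.39 without Vehicle 1 and 0.045 without GW2580 4 (-0.54 to 0.39 over the fits without 1 library), and that of Cxcl10 to 0.036 and 0.041 (-0.44 to 0.041). The Ccl6 to Ccl9 ratio separated all libraries, which leaving out 1 library cannot undo, so the fits without 1 library do not test it. Prior counts of 0.5 and 5 are small beside the counts of these 2 genes, at least 691 per library. The difference of this ratio ran from -0.94 to -0.76 with an exact p under 0.05 in all 13 alternatives. That of Ccl2 to Ccl12 turned to 0.031 without Vehicle 2, 0.046 without Vehicle 5, 0.24 without GW2580 5 (-0.19 to 0.24 without 1 library) and 0.045 with the length trend removed, and that of Ccl2 to Ccl7 to 0.023 without Vehicle 5 (-0.35 to 0.023). The cause was not tested. With the replicate number as a block, 0 of 9 chemokines and 2554 genes were called. The labels do not say whether same-numbered animals were paired. Correlations of same-numbered libraries ran from -0.50 to 0.32 and only number 2 matched best with its own, which cannot settle it. Counts of 77 to 68473 per chemokine and library leave the spread between libraries as the limit. With 1 library per mouse, differences between mice and between preparations cannot be told apart.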
